A study of Homo sapiens with 6 samples.

Results

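The 54 genes described here encode the machinery that licenses replication origins, opens the double helix, copies it and packs the new strands into chromatin. They were taken by gene symbol from the 58735 genes in the deposited table, and each of the 54 symbols matched 1 row. All 54 passed the filter on low counts, beside 16322 genes tested in all. The samples were 6 RNA sequencing libraries of LN229, an established human glioblastoma cell line. In 3 libraries, labelled HSD52_OE, the cells overexpressed HSD52, which the deposited table lists as an uncharacterized processed transcript. The other 3 were LN229 cells labelled WT and are called control. The labels do not say how HSD52 was delivered, whether control cells held an empty vector, whether the overexpressing cells were 1 clone, or whether the replicates were separate cultures, so p-values measure the spread between libraries, which may be technical.

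Replication starts at origins that are loaded in G1 phase, in a step called licensing. The origin recognition complex (ORC) sits on DNA, CDC6 and CDT1 join it, and together they load the ring-shaped MCM2-7 helicase, while geminin (GMNN) holds CDT1 back after S phase has begun. The kinase CDC7 with its partner DBF4 then activates the helicase with CDC45 and the GINS complex, polymerase alpha-primase lays down primers, and polymerases delta and epsilon extend them with the sliding clamp PCNA. Transcripts of many of these genes peak around the G1/S transition under control of E2F transcription factors. In dividing tumour cells such as glioblastoma they are used as signs of proliferation.

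Library totals were 17777157 to 18917790 counts, and levels are given as CPM, read counts scaled to the library size after TMM scaling, which corrects for the composition of each library. HSD52 had 0.569 ± 0.148 CPM in control and 68.1 ± 1.22 CPM in HSD52_OE libraries (SD, n = 3). Control libraries differed more from each other (chi-square per degree of freedom of 16.7 to 20.5 over genes) than HSD52_OE libraries did (2.32 to 3.76). The TMM factors of the groups did not overlap, at 0.940 to 0.987 in control and 1.04 to 1.05 in HSD52_OE libraries. Without that scaling the median log2 fold change over genes tested was 0.131 in place of 0.007. Of 8 glioma markers, all were detected, and they summed to 2927 to 3282 CPM in control and 2788 to 2840 CPM in HSD52_OE libraries. GFAP, the classical astrocyte marker among them, rose from 4.83 ± 1.46 to 7.29 ± 1.09 CPM. Of the 8, 2 rose and 3 fell, with EGFR at a log2 fold change of -1.05. The summed level of 8 fibroblast markers was 114.3 to 207.2 CPM in control and 45.8 to 48.2 CPM in HSD52_OE libraries. Of these markers 7 fell, 1 (FAP) rose and none was at 0. The part of these genes in the results below was not tested. Of 6 immune markers, CD3E and AIF1 were at 0 in every library, and the 6 summed to 0.888 to 1.42 CPM in control and 1.13 to 2.49 CPM in HSD52_OE libraries. The 5 endothelial markers summed to 1.69 to 2.45 and 1.30 to 2.05 CPM, with none at 0. Of 5 epithelial markers, KRT5 and CDH1 were at 0, and the 5, mostly KRT8 and KRT18, summed to 117.7 to 136.6 CPM in control and 168.4 to 180.5 CPM in HSD52_OE libraries.

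Replication genes were mostly lower in HSD52_OE cells, by modest amounts. Of the 54, 28 fell and 4 rose (quasi-likelihood test of edgeR, p under 0.05 after Benjamini-Hochberg adjustment across the 16322 genes), and 22 did not pass. Of all genes tested, 50.6% passed in either direction. The members that fell were 51.9% of the list, where 25.6% of all genes tested fell, and those that rose were 7.41%, where 25% of all genes rose. Of the 13155 protein-coding genes tested, 3959 fell and 2809 rose in the same fit. The median log2 fold change of the 54 was -0.24, against 0.01 over all genes tested and -0.06 over the protein-coding ones. It was -0.118 with library totals, where the median over all genes was 0.131. A fit of protein-coding genes alone gave -0.185, with 0.002 over all its genes. Of the 54, 9 fell more than 1.5-fold, which 10.4% of all genes tested did, and 0 rose that far, which 16.4% did. The values of the groups did not overlap for 33 of the 54, which is close to the background of 58.9%. Under scaling by library totals alone 17 members fell and 8 rose, where 18% of all genes fell and 32.7% rose, and the calls over all genes became 5337 higher and 2933 lower in place of 4086 and 4173. The 8 included the 4 that rose under TMM and ORC6, PRIM1, RFC3 and RRM2. The count of members that fell was 20 without HSD52_OE replicate 1, where 20.6% of all genes fell, and the count that rose was 2 without HSD52_OE replicate 3, where 21.1% of all genes rose. The summed level of all 54 was 5896, 6192 and 5780 CPM in control replicates 1 to 3 and 4791, 4913 and 4864 CPM in HSD52_OE replicates 1 to 3. In bulk samples such as these, fewer cells in S phase and less RNA per cell cannot be told apart.

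**Figure D1:**
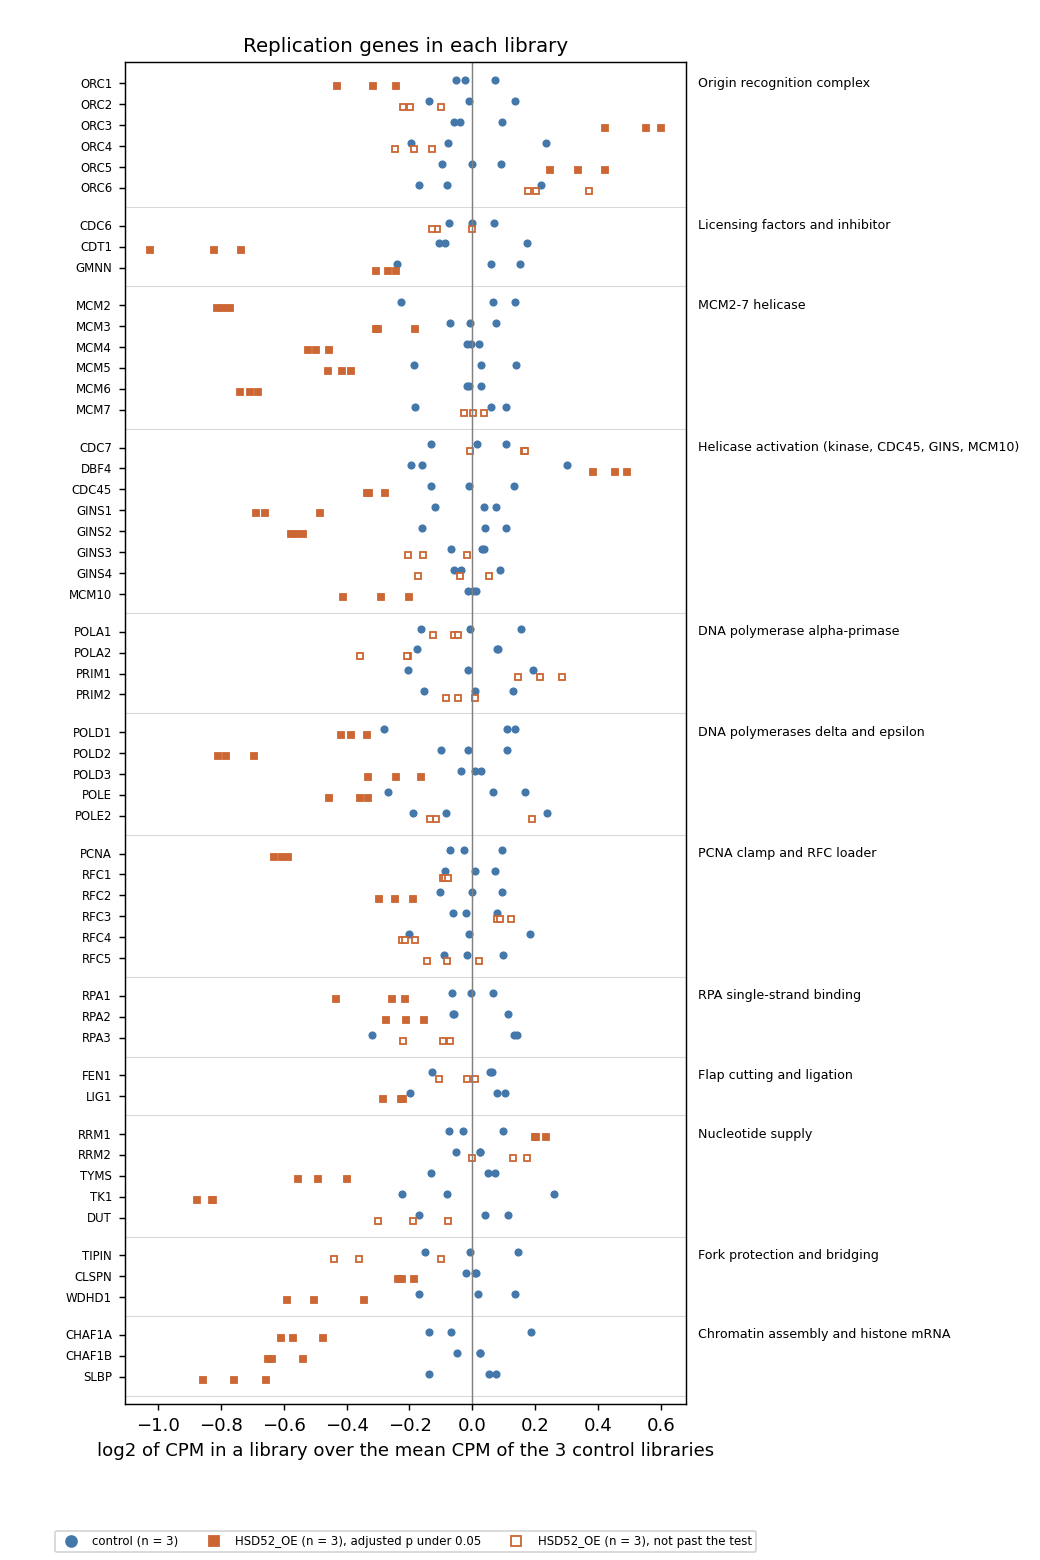
Each row is a gene, grouped by role, and each point is a library, placed on the horizontal axis at the log2 of its CPM over the mean CPM of the 3 control libraries. Filled squares mark genes past the test. CDT1, TK1, MCM2, POLD2 and SLBP lie farthest to the left and ORC3 and DBF4 farthest to the right, while the 4 genes of polymerase alpha-primase have open squares only.

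The share that fell differed between roles, which hold few genes each. All 3 chromatin genes, 5 of the 6 helicase subunits and 4 of the 5 listed genes of polymerases delta and epsilon fell. Of the genes of polymerase alpha-primase 0 of 4 fell, and of the ORC genes 1 of 6 (16.7%). Of all genes tested 25.6% fell, so in roles this small the last counts lie near the background. These differences between roles were not tested. Of the 28 that fell, 17 kept their call under all 14 other settings tried, library totals among them. They were CDT1, MCM2, MCM4, MCM5, MCM6, GINS1, GINS2, POLD1, POLD2, POLE, PCNA, TYMS, TK1, WDHD1, CHAF1A, CHAF1B and SLBP. Of the 4 that rose, ORC3 and DBF4 kept it under all 14. The share of all called genes that kept their call under these settings was not computed.

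The promoters of these genes were searched because many of the members moved the same way and E2F sites are their textbook control element. RefSeq promoters (GRCh38.p14, 250 bases before to 50 after each start) were matched by symbol for 48 of the 54 members, which leaves MCM4, MCM5, GINS4, POLD3, RPA2 and RPA3. The forms searched, on both strands, were TTTCCCGC, TTTGGCGC, TTTCGCGC and TTTGCCGC, and forms on opposite strands can overlap. At least 1 form was present for 23 of the 48 members (47.9%), against 727 of 11010 genes tested (6.60%) and 1090 of 27305 genes in the table (3.99%). The share was 50% both among the 24 members that fell and among the 20 that did not pass, and it was 1 of 4 among those that rose. The median log2 fold change was -0.25 over the 23 members with a form and -0.21 over the 25 without one. The 8 stretches that follow, from members with a form wholly before the start, compare the 5 that fell with the smallest p and the 3 that did not pass with the largest, with the searched forms in capitals, 5′ to 3′ on the strand of the gene.
MCM6: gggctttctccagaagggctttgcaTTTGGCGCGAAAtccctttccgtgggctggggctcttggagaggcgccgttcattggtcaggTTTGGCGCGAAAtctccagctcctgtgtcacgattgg
CDT1: cagggcgcccGCGGGAAAtttggcggga
PCNA: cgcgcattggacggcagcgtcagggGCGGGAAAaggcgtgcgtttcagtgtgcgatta
GINS2: tctcgccgtgGCGGGAAAacggcggccg
TYMS: cgggacggccGCGGGAAAaggcgcgcgg
MCM7: gggggcgacgTTTCGCGCc
POLA1: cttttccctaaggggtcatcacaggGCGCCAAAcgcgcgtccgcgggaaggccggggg
CDC7: ccgacctgcgGCGGGAAAgtcgcgcgcc

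The first 5 of these belong to genes that fell and the last 3 to genes that did not pass. The MCM6 stretch (chr2:135876497-135876620, minus strand) covers positions -177 to -54 from the start and holds the same 12 bases 2 times, each made of 1 form on either strand that overlap. The CDT1 stretch is chr16:88803744-88803771 (plus), that of PCNA chr20:5126649-5126706 (minus), that of GINS2 chr16:85688968-85688995 (minus) and that of TYMS chr18:657604-657631 (plus). Those of the genes that did not pass are chr7:100101398-100101416 (minus) for MCM7, chrX:24693756-24693813 (plus) for POLA1 and chr1:91501068-91501095 (plus) for CDC7. CDT1, PCNA, GINS2, TYMS and CDC7 share the run GCGGGAAA. MCM7 also holds that run, at position -187, and CDC7 a further form at -68, both outside the stretches shown. Stretches are short where an annotated transcript covers the bases. A match describes the letters only.

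Among the 6 genes of origin recognition, 2 rose and 1 fell. These are 33.3% and 16.7%, near the 25% and 25.6% of all genes tested. ORC1, the subunit whose protein level rises and falls with the cell cycle, fell from 48.4, 51.7 and 47.4 CPM in the control libraries to 36.4, 41.5 and 39.5 CPM in the HSD52_OE libraries (log2 fold change -0.33 ± 0.09 SE, edgeR Benjamini-Hochberg adjusted p = 0.00611). ORC3, a core subunit bound to ORC2 (chromosome 6, 87590067 to 87667453, plus strand), rose from 35.3, 35.7 and 39.2 to 53.9, 55.7 and 49.3 CPM, which was 0.53 ± 0.09 on the log2 scale (adjusted p = 0.000196). ORC5, another core subunit, rose from 29.2, 27.3 and 31.1 to 34.7, 36.8 and 39.2 CPM, or by 0.34 ± 0.10 (adjusted p = 0.00821). In all 3 genes each HSD52_OE library lay beyond each control library. ORC5 had an adjusted p of 0.0585 without HSD52_OE replicate 3, and ORC1 had 0.0531 without HSD52_OE replicate 1 and 0.0694 with library totals. Over all alternatives the adjusted p ran from 0.00130 to 0.0585 for ORC5 and from 0.00184 to 0.0694 for ORC1. ORC2, ORC4 and ORC6 did not pass, with log2 fold changes of -0.17, -0.19 and 0.25 and overlapping groups. ORC2 passed without control replicate 2 (adjusted p = 0.0494). ORC6 passed as higher under 5 of 14 alternatives, with an adjusted p of 0.00625 without that library, 0.00838 with library totals, 0.0334 with a replicate block, 0.0406 at a minimum of 1 CPM and 0.0265 with protein-coding genes alone.

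Per kb of gene length, the order of the ORC subunits changed at the top. That length counts all annotated exons, so levels of different genes can be compared only roughly. In control cells ORC1 was the highest at 15.6 ± 0.711 CPM per kb, above ORC3 at 9.97 ± 0.583. In HSD52_OE cells ORC3 stood at 14.4 ± 0.903 and ORC1 at 12.4 ± 0.809 CPM per kb. ORC4 was the lowest in both groups, at 2.91 ± 0.460 and 2.56 ± 0.105 CPM per kb. ORC5 and ORC6 did not differ beyond their spread in either group.

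Among the licensing factors, CDT1 had one of the largest falls of the members, beside TK1, MCM2, POLD2 and SLBP. CDT1, which brings the helicase to ORC (chromosome 16, 88803213 to 88809258, plus strand), had 86.5, 105 and 87.6 CPM in control and 55.9, 52.7 and 45.8 CPM in HSD52_OE libraries. The groups were far apart, and the fitted level fell by 44.7% (log2 fold change -0.86 ± 0.10, edgeR Benjamini-Hochberg adjusted p = 6.52e-06). GMNN, which encodes geminin, the inhibitor of CDT1, had 35.4, 46.4 and 43.6 against 35.3, 33.8 and 34.7 CPM. Its lowest control library lay next to the highest HSD52_OE library, and the fall of 0.27 ± 0.10 on the log2 scale (adjusted p = 0.0391) did not pass under 8 of 14 alternatives. Those 8 included the fits without control replicate 2 (0.122), control replicate 3 (0.0667) and HSD52_OE replicates 1 (0.0812), 2 (0.130) and 3 (0.0937), and its adjusted p over all 14 ran from 0.00390 to 0.266. CDC6, an ATPase of helicase loading, had 89.5 ± 4.44 and 84.6 ± 4.08 CPM and did not pass (adjusted p = 0.431).

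In the MCM2-7 ring, whose subunits work as a hexamer with 1 copy of each, 5 subunits fell and MCM7 stayed at a level at which the test found no difference. MCM6 (chromosome 2, 135839626 to 135876426, minus strand) had 244, 245 and 252 CPM in control and 148, 151 and 154 CPM in HSD52_OE libraries. The libraries of each group were tight, and the fall was 0.71 ± 0.08 on the log2 scale (edgeR Benjamini-Hochberg adjusted p = 3.86e-06). MCM2 fell from 171, 163 and 133 to 89.9, 88.6 and 91.2 CPM (log2 fold change -0.79 ± 0.09, adjusted p = 7.52e-06), with control replicate 3 the lowest of its group. MCM4 fell from 330, 324 and 321 to 230.3, 237 and 226 CPM (log2 fold change -0.49 ± 0.08, adjusted p = 0.000142). MCM5 and MCM3 had log2 fold changes of -0.42 ± 0.09 and -0.26 ± 0.09, and MCM3 had an adjusted p of 0.1005 without HSD52_OE replicate 1, 0.0896 without HSD52_OE replicate 3, 0.175 with library totals and 0.0550 with protein-coding genes alone, in a range from 0.00348 to 0.175.

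MCM7 had 536, 555 and 454 CPM in control and 506, 516 and 528 CPM in HSD52_OE libraries, so that the HSD52_OE values lay inside the range of the control values. Its log2 fold change was 0.00 ± 0.10 (edgeR Benjamini-Hochberg adjusted p = 0.978), and ran from -0.086 to 0.131 over the other settings. The MCM7 row overlaps AP4M1 on the other strand and the microRNA gene MIR25 on its own strand, and the counting is not stated to use strand. AP4M1 had 25.1 and 22.8 CPM. MCM7 was also the most abundant subunit per kb, at 117 ± 12.2 CPM per kb in control and 118 ± 2.61 in HSD52_OE cells. MCM3 followed at 90.9 ± 4.62 and 75.8 ± 3.71 CPM per kb, and MCM2 was the lowest at 31.8 ± 4.07 and 18.3 ± 0.267. In control cells MCM5 and MCM2 lay within their spread of each other. In HSD52_OE cells MCM6 and MCM4 were neighbours in the order, at 36.7 ± 0.733 and 33.2 ± 0.786 CPM per kb. The levels are of transcripts, and each gene length is the deposited one, which counts all annotated exons.

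**Figure D2:**
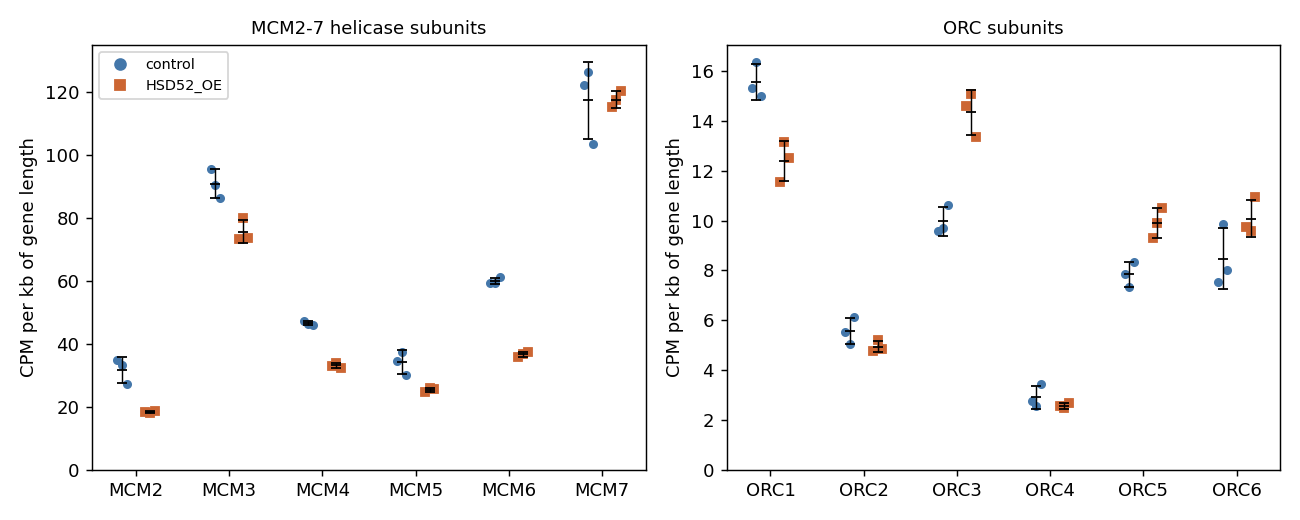
Points are libraries, with CPM per kb of gene length on the vertical axis and subunits of the MCM2-7 helicase (left) and of ORC (right) along the horizontal axis; bars are the mean and SD of 3 libraries. All helicase subunits but MCM7 are lower in HSD52_OE libraries, and ORC1 and ORC3 change places.

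Genes of helicase activation also split. GINS1 and GINS2, subunits of the GINS complex that holds CDC45 to the helicase, fell from 76.3, 85.0 and 87.3 to 52.5, 51.4 and 59.2 CPM and from 54.4, 62.6 and 65.4 to 41.2, 41.8 and 40.8 CPM. Their log2 fold changes were -0.61 ± 0.09 and -0.56 ± 0.09 (edgeR Benjamini-Hochberg adjusted p = 5.37e-05 and 0.000123). The other two subunits, GINS3 and GINS4, did not pass, at -0.12 ± 0.11 and -0.05 ± 0.09. CDC45 itself fell from 70.3, 77.6 and 64.6 to 56.3, 58.4 and 56.1 CPM (log2 fold change -0.31 ± 0.09, adjusted p = 0.00742), with no overlap. Its adjusted p was 0.0777 with library totals, the highest over all alternatives, which went down to 0.000986. MCM10, which helps the helicase to start, fell by 0.30 ± 0.09 (adjusted p = 0.00864), with 0.0648 without HSD52_OE replicate 3 and 0.110 with library totals, in a range from 0.00335 to 0.110.

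The activating kinase did not follow these partners. DBF4, the regulatory subunit (chromosome 7, 87876216 to 87909541, plus strand), rose from 50.2, 49.0 and 69.0 to 73.1, 76.8 and 78.8 CPM (log2 fold change 0.44 ± 0.11, edgeR Benjamini-Hochberg adjusted p = 0.00441). Control replicate 3 stood close to the HSD52_OE libraries, without overlap. DBF4 overlaps SLC25A40 on the other strand, which had 30.6 and 32.6 CPM and did not pass. CDC7, the catalytic subunit, had 46.4 ± 3.84 and 50.2 ± 3.42 CPM and did not pass (adjusted p = 0.338).

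For polymerase alpha-primase, which starts each new strand, 0 of 4 genes passed, where 50.6% of all genes tested did. POLA1, the catalytic subunit, had 36.4 ± 4.01 and 34.5 ± 1.01 CPM in control and HSD52_OE libraries, and the primase subunits PRIM1 and PRIM2 had 23.6 ± 3.25 and 27.4 ± 1.33 CPM and 41.9 ± 4.12 and 40.7 ± 1.32 CPM. POLA2, the accessory subunit, had the log2 fold change nearest to a call, -0.25 ± 0.11 (edgeR Benjamini-Hochberg adjusted p = 0.0609), and passed without control replicate 3 (0.0102) and with no filter beyond 1 count (0.0459). PRIM1 passed as higher without control replicate 3 (0.0182) and with library totals (0.0263). PRIM1 overlaps NACA on the same strand, which had 425 and 350 CPM.

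The polymerases that copy the bulk of the genome fell with 1 exception. POLD2, an accessory subunit of polymerase delta (chromosome 7, 44114681 to 44124358, minus strand), had 193, 223 and 205 CPM in control and 118, 120.3 and 128 CPM in HSD52_OE libraries. It fell by 0.76 ± 0.08 on the log2 scale (edgeR Benjamini-Hochberg adjusted p = 3.94e-06). POLE, the catalytic subunit of polymerase epsilon, fell from 116, 124 and 91.7 to 87.7, 86.2 and 80.4 CPM (log2 fold change -0.38 ± 0.10, adjusted p = 0.00575), and POLD1, that of polymerase delta, from 129, 131 and 98.1 to 91.3, 89.3 and 94.5 CPM (-0.38 ± 0.10, adjusted p = 0.00592). In both of these genes control replicate 3 lay near the HSD52_OE libraries and the other two controls far above. POLD3 fell by 0.24 ± 0.09 (adjusted p = 0.0287), and did not pass without HSD52_OE replicate 2 (0.103), without HSD52_OE replicate 3 (0.139), with library totals (0.281) or with protein-coding genes alone (0.0841), over a range that began at 0.0148. POLE2 had 8.10 ± 1.28 and 8.04 ± 1.05 CPM (adjusted p = 0.958), with overlapping groups.

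PCNA fell while most of its loader did not pass. PCNA, the sliding clamp (chromosome 20, 5114953 to 5126626, minus strand), had 337, 347 and 378 CPM in control and 236, 233 and 229 CPM in HSD52_OE libraries (log2 fold change -0.61 ± 0.08, edgeR Benjamini-Hochberg adjusted p = 3.09e-05). Per kb it stood at 241 ± 14.5 and 158 ± 2.37 CPM per kb. TK1 was next at 214 ± 37.9 and 119.6 ± 2.32, and in control replicate 2 TK1 lay above PCNA. Of the clamp loader, RFC2 fell from 101, 109 and 116 to 88.6, 91.8 and 95.5 CPM (log2 fold change -0.24 ± 0.08, adjusted p = 0.0228). RFC2 did not pass without HSD52_OE replicate 1 (0.110), without HSD52_OE replicate 2 (0.0893), with library totals (0.261) or with protein-coding genes alone (0.0725), over a range that began at 0.00759. RFC1, RFC3, RFC4 and RFC5 had log2 fold changes of -0.09, 0.10, -0.21 and -0.07, and RFC4 passed as lower without control replicate 1 (0.0167). RFC3 passed as higher with library totals (0.0375).

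RPA coats single-stranded DNA behind the helicase. RPA1, its large subunit, fell from 164, 149.99 and 156 to 116, 131 and 135 CPM (log2 fold change -0.30 ± 0.09, edgeR Benjamini-Hochberg adjusted p = 0.00873), with 0.0828 without HSD52_OE replicate 1 and 0.0963 with library totals, over a range that began at 0.00175. RPA2 fell from 78.3, 88.6 and 78.5 to 67.6, 70.6 and 73.6 CPM (-0.21 ± 0.08, adjusted p = 0.0470). The groups did not overlap in either gene, but the call of RPA2 was lost under 9 of 14 alternatives. It was 0.0987 without control replicate 2, 0.183, 0.140 and 0.0731 without HSD52_OE replicates 1, 2 and 3, and 0.05735 with a replicate block, in a range from 0.0184 to 0.407. RPA3, the small subunit, had 62.6 ± 10.8 and 57.3 ± 3.19 CPM and did not pass, except as lower without control replicate 1 (0.0178).

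Of the enzymes that finish lagging strands, LIG1 fell and FEN1 did not pass. FEN1, the nuclease that trims flaps, had 246, 248 and 217 CPM in control and 220, 234 and 238 CPM in HSD52_OE libraries, with overlapping groups (edgeR Benjamini-Hochberg adjusted p = 0.744). FEN1 overlaps FADS2 on the same strand and TMEM258 on the other, of which FADS2 fell by 1.28 on the log2 scale. LIG1, the ligase that seals the strand, fell from 66.6, 65.5 and 54.1 to 53.3, 53.0 and 50.9 CPM (log2 fold change -0.24 ± 0.09, adjusted p = 0.0398), with control replicate 3 next to the HSD52_OE libraries. LIG1 lost its call under 8 of 14 alternatives, among them those without control replicates 1 (0.101) and 2 (0.0812) and without HSD52_OE replicates 1 (0.0876), 2 (0.106) and 3 (0.126), in a range from 0.00172 to 0.293.

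Nucleotide supply split by enzyme. TK1, which salvages thymidine in S phase (chromosome 17, 78174075 to 78187233, minus strand), had 377, 478 and 342 CPM in control and 225, 218 and 225 CPM in HSD52_OE libraries (log2 fold change -0.84 ± 0.11, edgeR Benjamini-Hochberg adjusted p = 1.72e-05). The control libraries were spread widely and all lay above the HSD52_OE libraries. TYMS, which makes thymidylate anew, fell from 72.0, 70.9 and 62.5 to 51.9, 48.7 and 46.6 CPM (-0.48 ± 0.09, adjusted p = 0.000376). TYMS overlaps ENOSF1 on the other strand, which rose by 0.56 on the log2 scale, from 10.2 to 15.1 CPM. RRM1, the large subunit of ribonucleotide reductase, rose from 176, 157 and 161 to 189, 194 and 189.6 CPM (0.21 ± 0.08, adjusted p = 0.0400). RRM1 did not pass under 6 of 14 alternatives, which were those without control replicate 2 (0.0821), without HSD52_OE replicates 1 (0.124), 2 (0.146) and 3 (0.118), with a replicate block (0.0565) and with no filter beyond 1 count (0.178), and its lowest was 0.00221. RRM2, the subunit of that enzyme that varies with the cell cycle, had 172 ± 5.26 and 184 ± 11.5 CPM and did not pass (adjusted p = 0.316), except as higher with library totals (0.0314). DUT, which removes dUTP, had 178 ± 17.7 and 157 ± 12.05 CPM (adjusted p = 0.110), and passed as lower without control replicate 1 (0.0170).

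Fork protection genes were lower or did not pass. WDHD1, which bridges the helicase and polymerase alpha, fell from 39.0, 34.3 and 42.3 to 27.2, 30.3 and 25.6 CPM (log2 fold change -0.48 ± 0.11, edgeR Benjamini-Hochberg adjusted p = 0.00153). CLSPN, which encodes claspin, a fork mediator of checkpoint signals, fell from 54.1, 53.96 and 52.8 to 47.2, 45.9 and 45.5 CPM (-0.21 ± 0.08, adjusted p = 0.0377). The libraries of both groups were tight for CLSPN, yet it lost its call under 8 of 14 alternatives. Those were a replicate block (0.0634), DESeq2 (0.0519), the stricter filter on low counts, library totals, protein-coding genes alone and the fits without HSD52_OE replicates 1 (0.0944), 2 (0.139) and 3 (0.122), in a range from 0.0184 to 0.386. TIPIN, a partner of TIMELESS, had 13.3 ± 1.36 and 10.9 ± 1.38 CPM (adjusted p = 0.0801), and passed as lower without control replicate 1 (0.0446) and without HSD52_OE replicate 3 (0.0431).

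The genes that couple replication to chromatin all fell. SLBP, which binds the stem-loop of histone mRNAs (chromosome 4, 1692800 to 1712555, minus strand), fell from 93.5, 108 and 107 to 65.3, 56.8 and 60.8 CPM (log2 fold change -0.76 ± 0.09, edgeR Benjamini-Hochberg adjusted p = 6.92e-06). CHAF1A and CHAF1B, subunits of the chromatin assembly factor that follows PCNA, fell from 99.0, 118 and 94.4 to 70.0, 74.8 and 68.1 CPM and from 16.7, 15.9 and 16.7 to 11.3, 10.6 and 10.5 CPM. Their log2 fold changes were -0.55 ± 0.09 and -0.61 ± 0.11 (adjusted p = 0.000195 and 0.000420). No library of one group reached the range of the other in these 3 genes, which kept their calls under all 14 alternatives.

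Ratios of read counts between 2 genes of a library do not depend on how libraries are scaled, so 8 pairs of genes of the same role were set side by side. The pairs were chosen after the values had been seen, and no test is given. CDT1 counts were 2.45, 2.27 and 2.011 times those of GMNN in the control libraries and 1.58, 1.56 and 1.32 times in the HSD52_OE libraries. The MCM6 to MCM7 ratio was 0.455, 0.442 and 0.554 in control and 0.293, 0.294 and 0.292 in HSD52_OE libraries, and the MCM2 to MCM7 ratio went from 0.302 ± 0.0146 to 0.174 ± 0.00322. In both of these helicase pairs the ratio was lower in each HSD52_OE library, whatever the scaling.

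The other ratios also kept the groups apart. PCNA counts were 3.94 ± 0.0371 times those of RFC3 in control and 2.42 ± 0.0565 times in HSD52_OE cells, and TK1 counts 2.44 ± 0.534 and 1.17 ± 0.0386 times those of RRM1. ORC1 counts were 1.34 ± 0.122 and 0.741 ± 0.0628 times those of ORC3, so that the order of the 2 genes in reads was turned. GINS1 to GINS4 went from 1.97 ± 0.239 to 1.34 ± 0.207 and DBF4 to CDC7 from 1.20 ± 0.170 to 1.53 ± 0.159. In the last pair the highest control library, at 1.38, was just below the lowest HSD52_OE library, at 1.403.

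**Figure D3:**
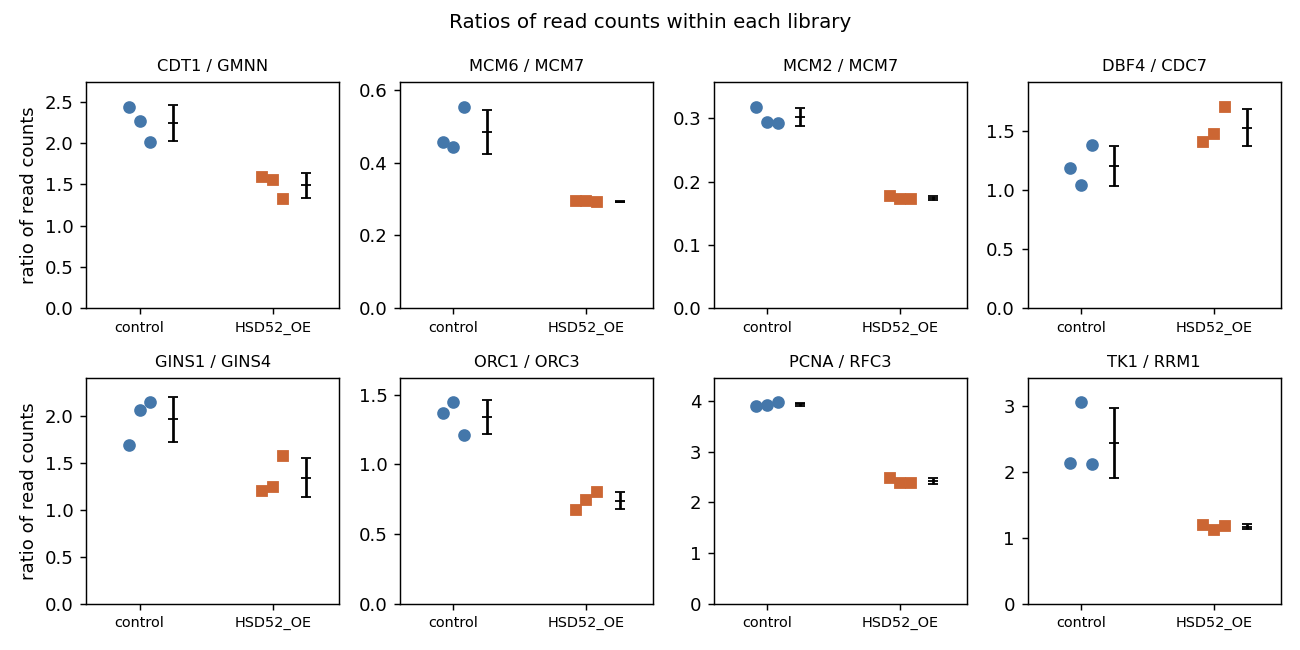
Each panel plots the ratio of the read counts of 2 genes on a vertical axis from 0, with 1 point per library and the mean and SD of 3 libraries beside the points. The groups do not overlap in any of the 8 panels, and the HSD52_OE values lie lower in all but the DBF4 to CDC7 panel. The pairs were chosen after the values had been seen, so the separation is a description only.

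Members were also set against their chromosomal surroundings. Over the 28 members that fell, the median log2 fold change of tested genes with a start within 1 Mb had a median of -0.07, against -0.01 over all tested genes. For 6 of the 28 that neighbour median was below -0.25. MCM4, on chromosome 8, had -0.49 for itself and -0.49 for its 6 neighbours, and CHAF1A, on chromosome 19, had -0.55 beside -0.47 for 40 neighbours. For MCM2, TK1, GINS2 and CDC45 the neighbour medians were -0.32, -0.31, -0.34 and -0.27. The part of the surroundings in these 6 falls was not tested. MCM6, POLD2, SLBP and CHAF1B lay among neighbours with medians of 0.14, 0.00, -0.05 and 0.09. Among the members that rose, ORC5 had 0.34 beside 0.39 for 11 neighbours, and ORC3 and DBF4 had neighbour medians of 0.21 and 0.17. Without the 12 members whose neighbour median lay beyond 0.25 in either direction, 21 of 42 fell and 3 rose, or 50% and 7.14%. All genes tested, with those in such regions kept, gave 25.6% and 25%, so the sets are unlike.

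**Figure D4:**
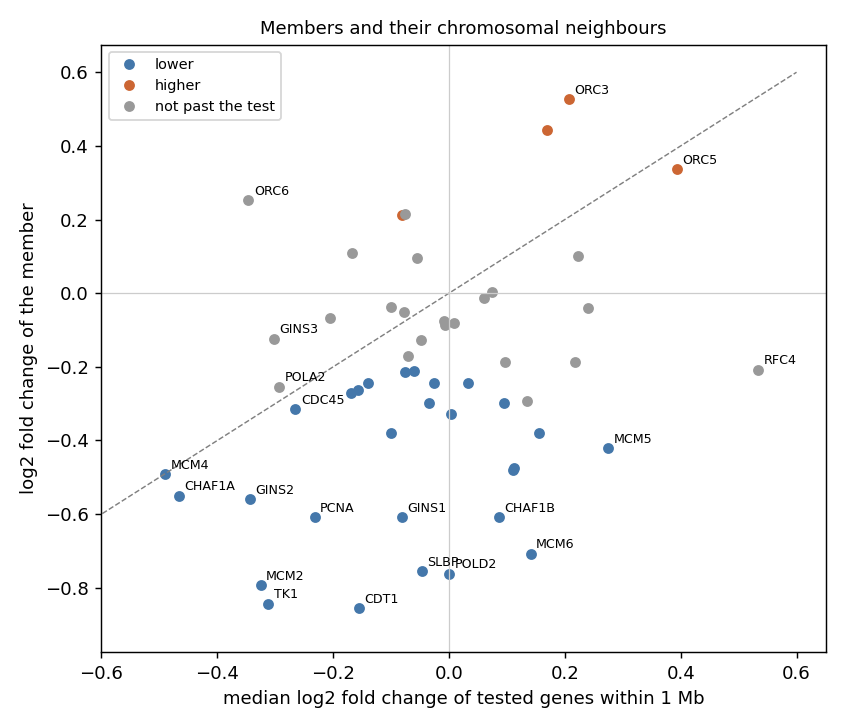
Each point is a member, with the median log2 fold change of tested genes within 1 Mb on the horizontal axis and its own log2 fold change on the vertical axis; the dashed line marks equal values. MCM4 and CHAF1A lie near the line, and MCM6, POLD2, SLBP and CDT1 lie far below it.

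Reads where genes overlap could change the count of a member, since no strand setting is given. Of the 54 members, 19 shared bases with another tested gene, taken over whole gene spans with introns included. Among the members that fell, MCM2 overlaps TPRA1, GINS2 overlaps GSE1 and CHAF1A overlaps UBXN6, each on the other strand. These partners fell too, with log2 fold changes of -0.71, -0.62 and -0.34, and UBXN6 went from 107 to 84.7 CPM. The partners of the other members that fell did not fall. ENOSF1, over TYMS, and AP001372.2, over POLD3, rose, with log2 fold changes of 0.56 and 0.83. TYMSOS over TYMS, SMYD4 and AC130689.1 over RPA1, and MORC3 over CHAF1B did not pass. Of the 35 members with no such partner, 21 fell and 3 rose, or 60.0% and 8.57%. All genes tested, with overlapping ones kept, gave 25.6% and 25%, so these sets are also unlike.

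Other genes of replication, in a list of 44, went in both directions. The median log2 fold change was -0.09, and 16 fell (36.4%, beside 25.6% of all genes tested) while 8 rose (18.2%, beside 25%). SKP2, which marks proteins such as p27 for destruction, fell from 72.4 ± 8.58 to 36.8 ± 1.79 CPM, and DTL, the receptor of the ligase that removes CDT1 on PCNA, from 65.02 ± 3.83 to 41.1 ± 2.17 CPM. LIG3, a ligase of repair and mitochondria, fell by 0.45 on the log2 scale. ASF1A, a histone chaperone, rose from 23.6 ± 1.81 to 39.7 ± 2.08 CPM, TOP2A, the topoisomerase that peaks in G2, from 422 ± 45.4 to 682.5 ± 8.61 CPM, and RNASEH1 by 0.39 on the log2 scale. Of 21 other nucleotide genes 7 fell and 2 rose, or 33.3% and 9.52%, beside 25.6% and 25% of all genes tested. IMPDH1 and CAD, of purine and pyrimidine synthesis, fell by 0.65 each and SAMHD1, which breaks down dNTPs, by 0.55 on that scale, while RRM2B, the small reductase subunit induced by p53, rose from 115 ± 25.4 to 174 ± 1.66 CPM.

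Among 26 genes of the E2F and G1 cyclin network, 24 were tested, 12 fell and 4 rose, or 50% and 16.7%, beside the same 25.6% and 25%. E2F1, an activator of replication genes, fell from 162 ± 23.7 to 88.9 ± 6.76 CPM, its dimer partner TFDP1 from 174 ± 12.8 to 108 ± 5.94 CPM and the D-type cyclin CCND3 from 112 ± 6.65 to 74.6 ± 1.14 CPM (edgeR Benjamini-Hochberg adjusted p = 6.69e-06, 1.22e-05 and 2.65e-05). The CDK inhibitor genes CDKN1A and CDKN1B rose from 222.5 ± 6.18 to 298 ± 10.6 and from 59.8 ± 4.12 to 79.1 ± 2.23 CPM, and the S and G2 cyclin CCNA2 from 121 ± 3.30 to 160 ± 4.05 CPM. E2F6 rose by 0.38 on the log2 scale, while E2F2, E2F4 and E2F5 fell by 0.28, 0.23 and 0.82. E2F3, E2F7 and E2F8 did not pass, with log2 fold changes of 0.18, 0.13 and -0.14.

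Mitosis genes, which follow S phase in the cycle, lay on the other side. Of 24 listed, 21 rose (87.5%, beside 25% of all genes tested) and 0 fell. Their median log2 fold change was 0.55 beside -0.24 for the replication members, and HMMR, KIF23 and CKAP2, which serve the spindle and cytokinesis, had the smallest p, with log2 fold changes of 1.15, 0.75 and 0.89. Both lists were chosen with earlier results of these data known, and the difference between them was not tested.

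**Figure D5:**
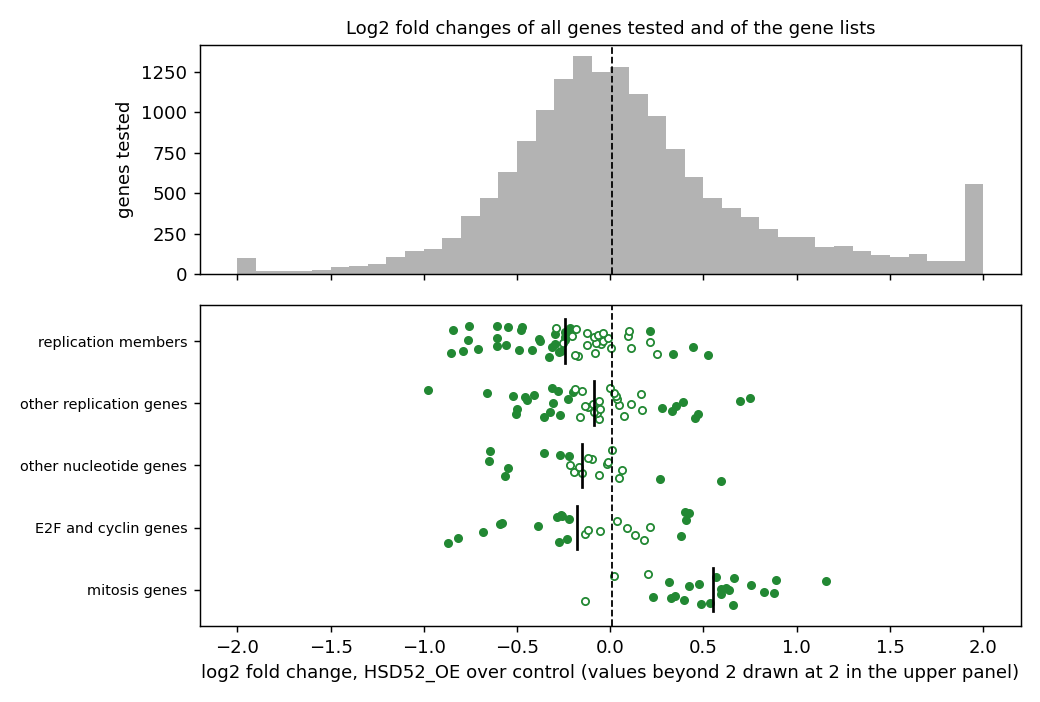
The upper panel is a histogram of log2 fold changes, HSD52_OE over control, of the 16322 genes tested, and the lower panel shows the members and 4 other lists, filled where past the test, with a bar at the median and a dashed line at the median of all genes. The replication members lie mostly left of the dashed line, between -0.86 and 0.53, and the mitosis genes mostly right of it.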

How the data were processed

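The authors deposited raw read counts per gene for 6 libraries. Per the submitters' processing notes, CASAVA, HISAT2 2.0.5, featureCounts 1.5.0-p3 and hg38 were used; the strand setting is not given in the sources used here. The deposited lengths of the 54 members equal the exon union of GENCODE 29. Genes were filtered with filterByExpr, scaled by TMM and compared by the quasi-likelihood test of edgeR (version 4.0.16, R 4.3.3, robust, group alone, 2-sided, Benjamini-Hochberg adjustment over 16322 genes, threshold 0.05). Log2 fold changes are HSD52_OE over control ± SE. The procedure was tested on simulated data. Deviations of same-numbered libraries were weakly correlated (0.0497, 0.0217 and 0.0406), and those of differently numbered libraries ran from -0.0414 to -0.0023. The labels do not say that numbers pair libraries, so no block was used in the main fit. Members and lists were chosen with earlier results of these data known. Values in each library are given for up to 3 members per role with the smallest p past the threshold and for members that rose; in other lists, the 3 with the smallest p in each direction are named, except 1 gene that is not reported here. Alternatives were DESeq2 1.42.0, limma-voom (limma 3.58.1), other scalings and filters, protein-coding genes alone, a replicate block, and each library left out.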

Additional observations from a re-analysis of the deposited data

How the results depend on the processing

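The count of members that fell was 28 under RLE size factors, where 25.6% of all genes fell, and 28 under limma-voom (25.3%). It was 29 with no filter beyond 1 count (14%) and 24 at a minimum of 1 CPM in 3 libraries (25.9%). DESeq2 gave 26 (24.5%) and protein-coding genes alone 21 (25.6%). With 1 library left out it was 20 to 31 (19.9% to 26.7%). Library totals gave 17, with 8 higher, beside 18% and 32.7% of all genes. The count that rose was 2 to 5 with 1 library left out, where 20.2% to 25.3% of all genes rose. With the replicate block 26 fell and 4 rose, beside 25.9% and 25.8% of all genes, and 8436 genes changed in place of 8259. RPA2, RRM1 and CLSPN lost their calls and ORC6 gained one. The block moved no count of calls by over 1.5 times.

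Signs turned only for members that did not pass in either fit. With library totals the log2 fold changes were 0.044 for CDC6, 0.075 for GINS4, 0.048 for POLA1, 0.083 for PRIM2, 0.110 for POLE2, 0.037 for RFC1, 0.056 for RFC5 and 0.089 for FEN1. With protein-coding genes alone they were 0.008 for GINS4, 0.018 for PRIM2, 0.046 for POLE2 and 0.021 for FEN1. MCM7 was at -0.036 with no filter beyond 1 count, POLE2 at 0.013 at a minimum of 1 CPM. With 1 library left out, log2 fold changes ran from -0.086 to 0.053 for MCM7, from -0.109 to 0.003 for GINS4, from -0.118 to 0.024 for PRIM2 and from -0.130 to 0.117 for POLE2. A member that did not pass may still differ, since 3 libraries a group limit what can be called.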
